A study of Mus musculus with 18 samples.

Results

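The 7 genes described here were listed by symbol for their roles in 3 hormone signals, with earlier results of these data known. *Ghr* and *Prlr* encode the receptors for growth hormone and prolactin. *Stat5a* and *Stat5b* encode the transcription factors both receptors activate. *Cish* and *Socs2* encode inhibitors that feed back on the same receptors, and *Esr1* encodes the estrogen receptor alpha. These are 7 of the 78239 genes listed in the count tables, and all 7 were found there. The study asked how a maternal low protein (LP) diet affects the kidney of the offspring, against a normal protein (NP) diet. Poly(A) RNA from a piece of the left kidney of 18 wild-type CD-1 mice, an outbred stock, was sequenced without keeping strand, 1 library per mouse. Both sexes were taken at 6 wk of age, with 5 mice in each group except the NP females, of which there were 3. LP dams were fed 8% protein and NP dams 18% protein through gestation and lactation, and every pup was weaned to the 18% protein diet. The LP formula also holds more sucrose, which cannot be told apart from the lower protein here. Glomerular filtration rate was measured in the adult mice with FITC-sinistrin, although the sources used here do not say in which of these 18, and every mouse was injected with cationic ferritin for imaging. Males were collected 1.5 h and females 24 h after the last injection, so sex cannot be told apart from collection time in any comparison below. The litter of each mouse and the estrous stage of the females are not given in the sources used here.

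Growth hormone and prolactin bind class I cytokine receptors that have no kinase of their own and signal through the attached kinase JAK2. JAK2 phosphorylates STAT5A and STAT5B, which move to the nucleus and switch on genes that include *Cish* and *Socs2*, whose proteins dampen the same receptors. In rodents the release of growth hormone differs between the sexes, and STAT5-dependent sex differences in gene expression are best known from the liver. The estrogen receptor alpha is a nuclear receptor that binds DNA once it holds estrogen, and the kidney tubule is among the tissues that express it. Messenger RNA counts measure none of these activities, and counts per gene do not separate the long from the short prolactin receptor or *Ghr* from the growth hormone binding protein made from the same gene.

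The libraries held 14050486 to 23562411 reads assigned to genes, and levels are given as CPM (counts scaled to a common total) after scaling by the trimmed mean of M-values (TMM). All 8 proximal tubule markers were detected in every library, with a summed level of 12184 to 14721 CPM in males and 8106 to 13073 CPM in females, and the Y-linked gene *Uty* separated the sexes as labeled. LP females 1 and 2 and NP female 3 stood apart from the other libraries: 6 interferon response genes summed to 81.4 to 130.4 CPM in these 3, against 591 to 2757 CPM elsewhere, and 5 glucocorticoid response genes to 215 to 462 CPM, against 514 to 1278 CPM. Results that rest on these 3 are given with and without them. Fat cell markers (6 genes summed) were highest in LP female 5 (250.1 CPM), NP female 3 (205 CPM), LP male 4 (89.1 CPM), NP male 3 (55.1 CPM) and NP male 2 (45.2 CPM). LP male 2 held 5.78 CPM of *Xist*, the RNA of the silenced X chromosome, against at most 0.581 CPM in the other males and at least 324 CPM in females. NP female 3 held 0.992 CPM of *Uty* (14 counts), against at most 5 counts in the other females and at least 19.3 CPM in males. It also held 31 counts of the Y-linked gene *Ddx3y*, against at most 7 in the other females. In whole tissue, fewer cells of a type and less RNA per cell cannot be told apart.

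The STAT5 proteins bind a palindrome of 9 bases, TTCNNNGAA. It was searched in RefSeq promoter windows of 300 bases (250 before and 50 after a transcription start, mouse build GRCm38.p6), where 8.30% of all 32851 windows held at least 1 match and 0.457% held at least 2. The windows matched 6 of the 7 genes, 12 windows in all, and 3 of the 12 held a match. *Cish*, the textbook STAT5 target, was among the few windows with 2 matches, at +1 and +12 from the start. The stretch that holds them is printed with the matches in capitals (chr9:107296599-107296688, plus strand), from 60 bases before the start to 30 after it.
Cish: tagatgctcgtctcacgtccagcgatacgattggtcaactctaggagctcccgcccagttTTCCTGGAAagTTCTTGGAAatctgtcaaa
*Prlr* has 3 annotated starts, and since the counts do not say which was used in the kidney, the 120 bases before each are shown, on the plus strand, at chr15:10177118-10177237, chr15:10223786-10223905 and chr15:10293531-10293650.
Prlr start 1: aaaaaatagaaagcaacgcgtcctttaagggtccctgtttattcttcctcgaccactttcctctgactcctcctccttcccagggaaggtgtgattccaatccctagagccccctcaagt
Prlr start 2: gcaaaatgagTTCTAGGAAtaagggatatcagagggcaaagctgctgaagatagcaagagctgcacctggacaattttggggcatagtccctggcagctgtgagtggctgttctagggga
Prlr start 3: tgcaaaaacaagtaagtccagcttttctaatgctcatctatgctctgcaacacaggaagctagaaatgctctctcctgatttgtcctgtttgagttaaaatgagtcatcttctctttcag
Only start 2 held the palindrome in this search, beginning at position -110, and the remaining match was at -188 of a start of *Esr1*. The full estrogen response element, GGTCANNNTGACC, was in 0.0700% of all windows and in 0 of the 12. A match is a run of letters and not a measured binding site.

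*Prlr* differed most between the sexes among the 7 genes: every female kidney held far more of it than any male kidney. In LP males *Prlr* was 1.39, 4.15, 0.928, 5.63 and 1.27 CPM in mice 1 to 5, and in NP males 0.419, 4.06, 3.93, 2.91 and 0.465 CPM. In LP females it was 206, 68.3, 109, 160.3 and 135 CPM, and in NP females 76.0, 89.3 and 202 CPM. The groups of the 2 sexes did not overlap, and the lowest female stood 12.1-fold above the highest male. As raw reads, males had 6 to 125 counts on *Prlr* and females 1273 to 4475, so the lowest male values carry much counting error. The means were 131 ± 54.5 CPM in females (SD, n = 8) and 2.52 ± 1.85 CPM in males (SD, n = 10). Because NP males 1 and 5 had 6 and 8 counts, *Prlr* missed the minimum of 10 counts in every library and was tested without that filter, where the log2 difference of females minus males was 5.61 ± 0.34 (SE; quasi-likelihood test of edgeR, Benjamini-Hochberg adjusted p = 7.15e-15). A differentially expressed gene (DEG) here has an adjusted p under 0.05 and a change of at least 1.5-fold, and 8.36% of genes were DEGs of sex in that unfiltered fit. The difference was 5.60 ± 0.49 in NP mice and 5.61 ± 0.47 in LP mice on the same scale, and it lay between 5.35 and 6.07 under all 26 alternatives that could be computed for *Prlr*.

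Within the males, *Prlr* was 2.91 CPM or more in LP males 2 and 4 and NP males 2, 3 and 4, and at or below 1.39 CPM in the other 5. Of those mice, LP male 4 and NP males 2 and 3 also had the highest fat cell marker sums of the males, and LP male 2 held the most *Xist* reads of the males (78, against at most 10). NP male 4, with 2.91 CPM of *Prlr*, had a fat cell marker sum of 5.22 CPM and 0.203 CPM of *Xist*. The fat cell markers ranged from 4.31 to 89.1 CPM in males and from 6.64 to 250.1 CPM in females, 1 of the 6 was detected in every male, and *Adipoq*, which defines fat cells, was at 0 in LP males 3 and 5 and NP males 1, 4 and 5. Their part in the male *Prlr* level was not tested. Without the 5 libraries highest in fat cell markers the sex difference of *Prlr* was 6.07 on the log2 scale.

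*Ghr*, on the minus strand of chromosome 15 (GRCm39, 3347235 to 3613024), was the most abundant of the 7 in both sexes and was lower in females. LP males had 1122, 1162, 1252, 1078 and 1129.9 CPM, and NP males 1288, 1005, 1294, 1339.7 and 1129 CPM. LP females had 398, 770.3, 922, 1083 and 873 CPM, and NP females 1023, 785 and 585 CPM. 6 of the 8 females lay below every male, and LP female 4 and NP female 1 lay within the male range. The means were 805 ± 226 CPM in females (SD, n = 8) and 1179.9 ± 108 CPM in males (SD, n = 10). The log2 difference of females minus males was -0.55 ± 0.15 (SE, edgeR adjusted p = 0.00877), a 1.47-fold change that passed the adjusted p and not the 1.5-fold limit. By adjusted p alone, 38.7% of all genes tested passed. Without the 3 libraries that stood apart the 5 remaining females averaged 937 ± 118 CPM and the difference was -0.33 (edgeR adjusted p = 0.0138). Within one diet the difference missed the threshold in this fit, at -0.60 in NP mice (edgeR adjusted p = 0.069) and -0.50 in LP mice (edgeR adjusted p = 0.0886).

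**Figure D1:**
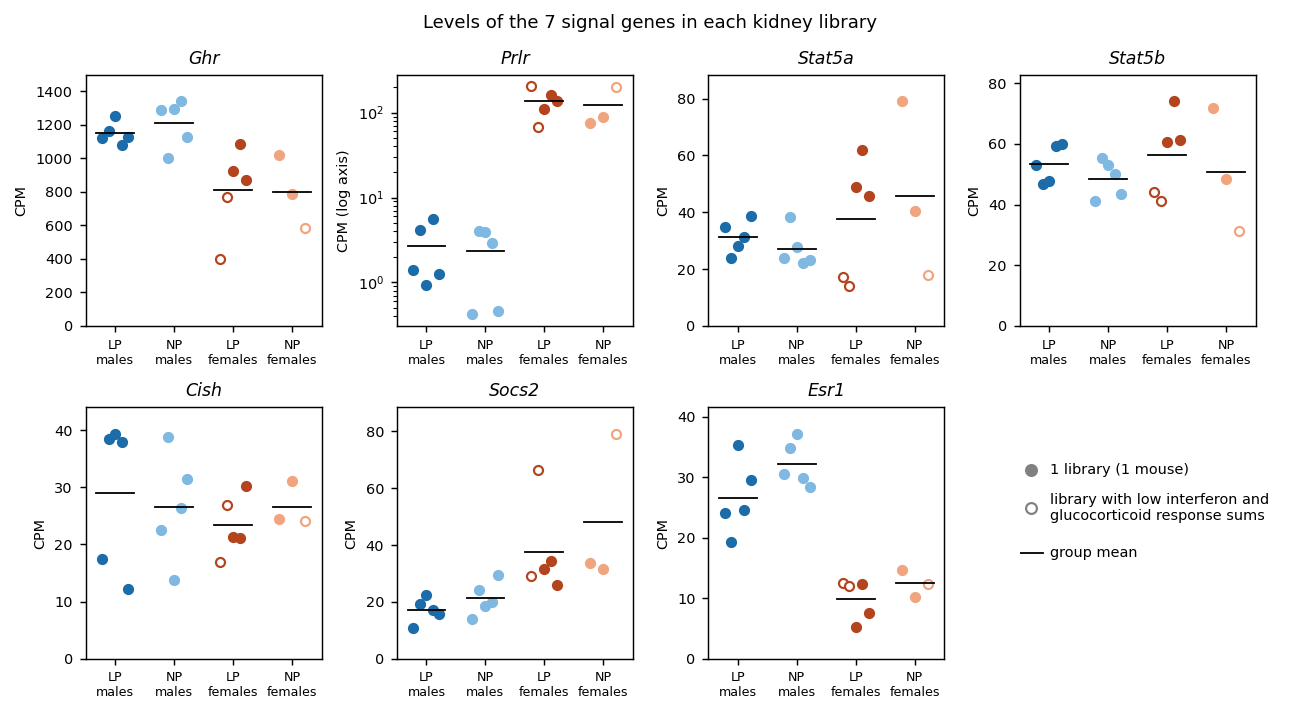
Level of each of the 7 genes in every library, in CPM (vertical axes from 0, except *Prlr*, whose axis is logarithmic), by group (each sex under each diet). Points are libraries, open circles the 3 libraries that stood apart, and bars the group means: *Prlr* and *Esr1* do not overlap between the sexes, and no gene separates LP from NP.

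The 2 receptors thus moved in opposite directions between the sexes, *Ghr* lower and *Prlr* higher in females. Divided by annotated exon length, the *Ghr* level was 352 to 5648 times that of *Prlr* in males (median 1164) and 3.55 to 24.7 times in females (median 13.98). The ranges of this ratio did not overlap. In LP female 1 and NP female 3, both among the libraries that stood apart, *Ghr* was the lowest of all libraries (398 and 585 CPM) and *Prlr* the highest (206 and 202 CPM).

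*Stat5a* and *Stat5b*, neighbors on chromosome 11, encode closely related factors that carry the signal of both receptors. Their transcripts shared 6.96% of *Stat5a* and 7.45% of *Stat5b* stretches of 50 bases. Reads that lie wholly within shared sequence could not be placed on 1 gene, and how many were lost was not tested. *Stat5a* was 34.7, 23.8, 28.1, 31.3 and 38.8 CPM in LP males and 23.8, 38.2, 27.6, 22.1 and 23.4 CPM in NP males. In LP females it was 17.4, 14, 49.0, 61.8 and 45.8 CPM, and in NP females 79.0, 40.4 and 17.9 CPM. The females split: the 3 libraries that stood apart lay between 14 and 17.9 CPM, below every male, and the other 5 between 40.4 and 79.0 CPM, above every male. Over all libraries the log2 difference of females minus males was 0.51 ± 0.29 (SE, edgeR adjusted p = 0.173). Without the 3 libraries it was 0.95 ± 0.16 (SE, edgeR adjusted p = 0.000353), a 1.94-fold change, in a fit where 19.2% of genes were DEGs. *Stat5a* was then a DEG in NP mice (1.16) and in LP mice (0.75) too. The 3 were set apart by gene expression in these same data, so these calls follow a choice made on the data. *Stat5a* was a DEG of sex by limma-voom with sample weights (0.82, adjusted p = 0.00896) and without NP female 3 alone (0.72, edgeR adjusted p = 0.0484). Sample weights count libraries that deviate for less, and NP female 3 is 1 of the 3. Neither call is thus a separate check of that choice.

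*Stat5b* was also lower in the 3 libraries that stood apart than in the other 5 females, and both sets overlapped the males. It was 52.9, 46.9, 48.0, 59.3 and 59.9 CPM in LP males and 41.2, 55.2, 53.0, 50.1 and 43.4 CPM in NP males. In LP females it was 44.3, 41.2, 60.5, 74.0 and 61.2 CPM, and in NP females 71.9, 48.5 and 31.5 CPM. The 3 libraries that stood apart averaged 39.0 ± 6.71 CPM (SD, n = 3), the other 5 females 63.2 ± 10.2 CPM and the males 51.0 ± 6.26 CPM. The sex difference was 0.07 on the log2 scale over all libraries (edgeR adjusted p = 0.737) and 0.31 without the 3 (edgeR adjusted p = 0.0302), the latter under 1.5-fold. *Stat5a* per *Stat5b*, each per exon length, was 0.369 to 0.580 in males, 0.627 to 0.921 in the 5 females and 0.285 to 0.476 in the 3. The 5 females thus lay above every male in this ratio. Of the 3, LP female 1 (0.329) and LP female 2 (0.285) lay below every male, and NP female 3 (0.476) lay within the male range. Interferon and glucocorticoid response genes were lowest in the same 3 libraries, and their part in the *Stat5a* and *Stat5b* levels was not tested.

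*Socs2*, which encodes a brake on growth hormone receptor signaling, rose in females. It was 10.8, 19.3, 22.3, 17.02 and 15.6 CPM in LP males and 14.04, 24.3, 18.6, 20.1 and 29.5 CPM in NP males. In LP females it was 29.1, 66.6, 31.5, 34.4 and 25.9 CPM, and in NP females 33.6, 31.5 and 79.0 CPM. Within each diet every female lay above every male, while across diets NP male 5 (29.5 CPM) overlapped LP females 1 and 5. The means were 41.4 ± 19.8 CPM in females (SD, n = 8) and 19.1 ± 5.34 CPM in males (SD, n = 10), a log2 difference of 1.16 ± 0.22 (SE, edgeR adjusted p = 0.000622). LP female 2 and NP female 3, both among the libraries that stood apart, held the 2 highest values. Without the 3, the other females averaged 31.4 ± 3.34 CPM and *Socs2* was still a DEG at 0.74 ± 0.17 (SE, edgeR adjusted p = 0.00312). In LP mice the difference was 1.14 ± 0.30 (SE, edgeR adjusted p = 0.0127). In NP mice it was 1.17 ± 0.34 (SE, edgeR adjusted p = 0.0169), a call that rested on NP female 3, without which it was 0.63 (edgeR adjusted p = 0.201).

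*Cish*, the other feedback inhibitor, did not pass the test of sex. It was 17.4, 38.4, 39.3, 37.8 and 12.2 CPM in LP males and 22.4, 38.8, 13.8, 26.4 and 31.5 CPM in NP males. In LP females it was 16.95, 26.9, 21.3, 21.2 and 30.3 CPM, and in NP females 24.4, 31.1 and 24.2 CPM. The females lay wholly within the range of the males, and the males spread more, with a mean of 27.8 ± 10.8 CPM (SD, n = 10) against 24.5 ± 4.80 CPM in females (SD, n = 8). The log2 difference was -0.16 ± 0.23 (SE, edgeR adjusted p = 0.626), and it lay between -0.25 and 0.05 over the alternatives. *Cish* shares 16.8% of its exon length with the antisense gene Gm67592 and 7.46% with Gm17041, and reads that such partners share were not counted for either. Counting each strand separately and adding the results gave 1.72 to 2.44 times as many *Cish* reads (median 2.04), so its level is less certain than that of the other 6, for which *Stat5a*, with up to 1.13 times, had the largest such ratio.

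*Socs2* and *Cish* are switched on by the same factors, and their balance differed between libraries. *Socs2* per *Cish*, each per exon length, was 0.189 to 0.565 in males, 0.359 to 0.683 in the 5 females and 0.721 to 1.38 in the 3 libraries that stood apart. The highest ratios of all thus lay in the 3. The limit on the *Cish* counts given above holds for this ratio too.

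**Figure D2:**
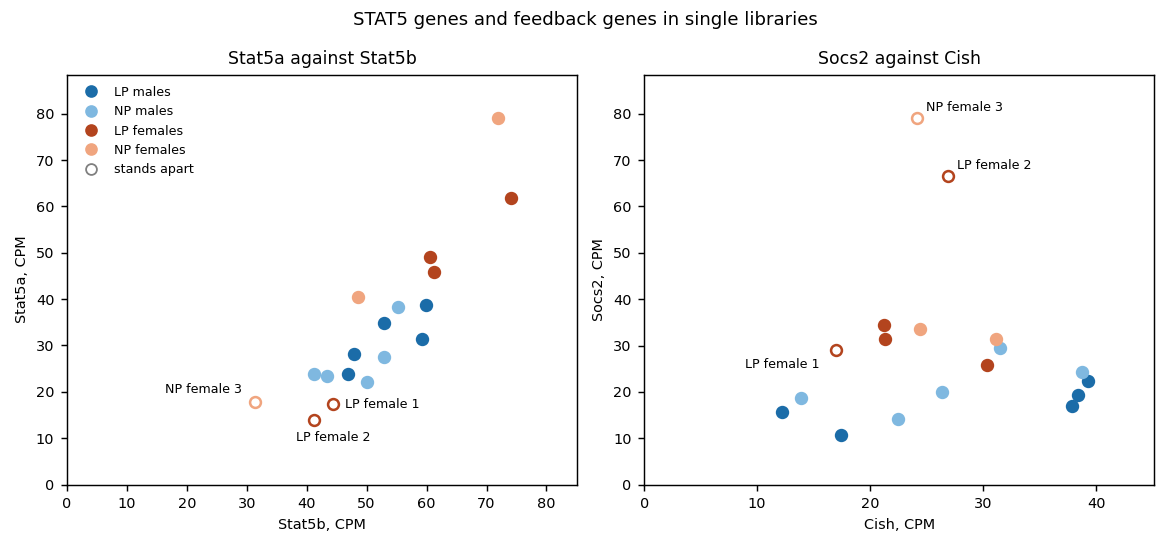
Levels in each library in CPM, *Stat5a* against *Stat5b* and *Socs2* against *Cish*, with color for the group and open circles for the 3 libraries that stood apart. The 3 lie lowest in *Stat5a*, between 14 and 17.9 CPM, while 2 of them lie highest in *Socs2*, at 66.6 and 79.0 CPM.

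*Esr1* fell in females, and its groups did not overlap between the sexes. It was 24.2, 19.3, 35.4, 24.6 and 29.6 CPM in LP males and 30.5, 34.8, 37.1, 29.9 and 28.5 CPM in NP males. In LP females it was 12.5, 11.97, 5.26, 12.4 and 7.59 CPM, and in NP females 14.8, 10.2 and 12.4 CPM. The lowest male stood 1.31-fold above the highest female, and the lowest values, in LP females 3 and 5, were not in the libraries that stood apart. The means were 10.9 ± 3.08 CPM in females (SD, n = 8) and 29.4 ± 5.57 CPM in males (SD, n = 10), a log2 difference of -1.39 ± 0.17 (SE, edgeR adjusted p = 5.76e-06). The difference was -1.37 in NP mice (edgeR adjusted p = 0.00107) and -1.42 in LP mice (edgeR adjusted p = 0.00015). It was a DEG of sex under all 28 alternatives, between -1.51 and -1.31.

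*Esr2*, the gene of the estrogen receptor beta, lay on the same side. It was 4.41 to 21.5 CPM in males, with a mean of 11.9 ± 6.75 CPM (SD, n = 10), and 0.184 to 0.725 CPM in females, with a mean of 0.457 ± 0.174 CPM (SD, n = 8), where it had 4 to 12 counts. The groups did not overlap. Tested without the count filter, like *Prlr*, its log2 difference was -4.72 ± 0.35 (SE, edgeR adjusted p = 1.52e-12), although at such counts the size is imprecise.

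Of the 6 genes tested with the count filter, 2 (*Socs2* and *Esr1*) were DEGs of sex, against 18.7% of the 12665 genes tested. *Socs2* was among the 11.5% that rose in females and *Esr1* among the 7.22% that fell. By adjusted p alone 3 of the 6 passed, *Ghr* being the other, and the median log2 difference of all genes tested was 0.05. Within a diet, *Socs2* and *Esr1* were again the DEGs, against 17.6% of genes in NP mice and 11.9% in LP mice. All females stood apart from all males for *Esr1*, 1 of the 6, while 8.40% of the genes tested did so, and *Prlr*, outside that set, stood apart as well. Without the filter 4 of the 7 were DEGs, *Ghr* joining at 1.52-fold (edgeR adjusted p = 0.00366). In that fit 8.36% of 42285 genes were DEGs, a share that also takes in the genes of few counts. Of 28 exact two-sided permutation tests of single members, *Prlr*, *Socs2* and *Esr1* gave 0.0357 between the sexes in NP mice and 0.00794 in LP mice, unadjusted and the smallest p these group sizes allow. *Ghr* gave 0.0714 and 0.0159 in the same exact tests.

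**Figure D3:**
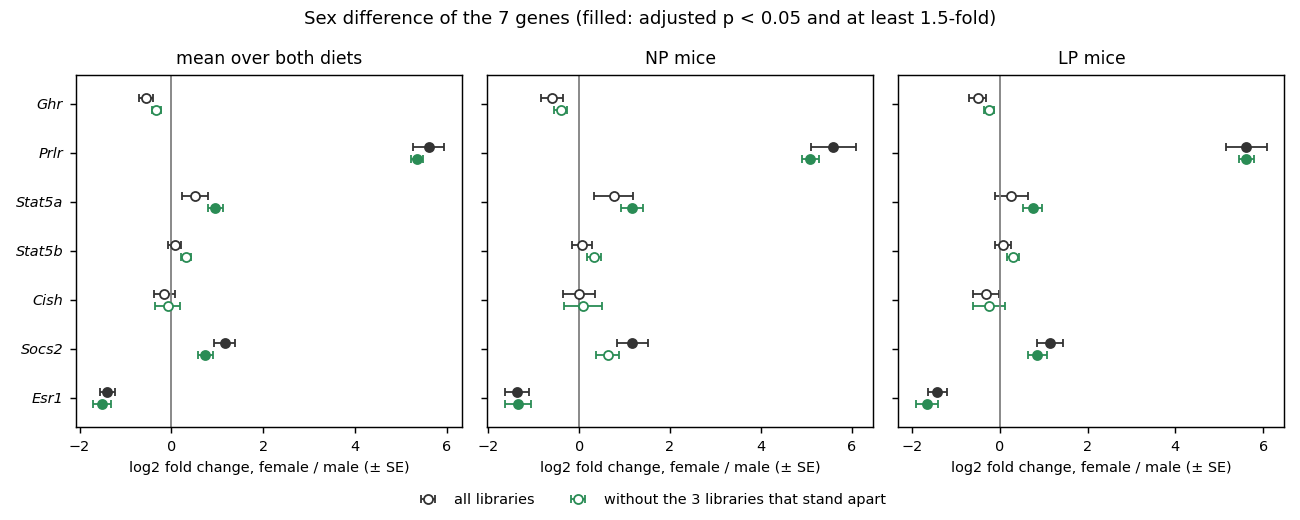
Log2 difference of females minus males with its SE for each gene, as the mean over both diets, in NP mice and in LP mice, with all libraries in black and without the 3 that stood apart in green (filled points are DEGs, *Prlr* from the fit without the count filter). *Prlr* at 5.61 and *Esr1* at -1.39 lie furthest from 0, and in the fits drawn here *Stat5a* is a DEG without the 3 and not with all libraries.

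The sexes also differed in the markers of nephron segments, which bear on any gene that one segment expresses more than others. The 5 markers of the proximal straight tubule summed to 3758 to 5333 CPM in males and 341 to 1610.0 CPM in females, all 5 being detected in every library, although several of them are themselves known to differ by sex. The 4 podocyte markers summed to 130.5 to 212 CPM in males and 217 to 427 CPM in females, and the 4 thick ascending limb markers to 2160.1 to 4225 CPM and 2052 to 7119 CPM. Their part in the sex differences of *Prlr*, *Ghr*, *Socs2* and *Esr1* was not tested.

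Levels of different genes can be ranked once divided by annotated exon length, as CPM per kb. That length takes in every annotated exon, whether or not the kidney uses it. The *Cish* level leaves out reads shared with antisense genes. Counting each strand separately gave 1.72 to 2.44 times as many *Cish* reads, so its place in both orders is uncertain. In males the order was *Ghr* (117 ± 10.7), *Stat5b* (7.37 ± 0.904), *Cish* (4.33 ± 1.69), *Stat5a* (3.53 ± 0.761), *Esr1* (2.11 ± 0.399), *Socs2* (1.25 ± 0.350) and *Prlr* (0.136 ± 0.0997 CPM per kb, SD, n = 10). Every male kept each step of this order except that from *Cish* to *Stat5a*, which held in 7 of 10. In females the order was *Ghr* (79.7 ± 22.4), *Stat5b* (7.82 ± 2.19), *Prlr* (7.05 ± 2.94), *Stat5a* (4.93 ± 2.82), *Cish* (3.82 ± 0.749), *Socs2* (2.72 ± 1.30) and *Esr1* (0.780 ± 0.221 CPM per kb, SD, n = 8). There the first step, *Ghr* over *Stat5b*, and the last, *Socs2* over *Esr1*, held in all 8, and the 4 steps between held in 5 or 6 of 8, so that *Stat5b*, *Prlr*, *Stat5a*, *Cish* and *Socs2* were not separated from their neighbors. *Prlr* thus stood last in males and above 4 of the others in females, and *Esr1* above 2 of the others in males and last in females.

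For none of the 7 genes did a difference with maternal diet pass the test in either sex. In males the log2 difference of LP minus NP was -0.08 ± 0.10 for *Ghr*, 0.21 ± 0.17 for *Stat5a*, 0.14 ± 0.11 for *Stat5b*, 0.13 ± 0.34 for *Cish*, -0.32 ± 0.22 for *Socs2* and -0.27 ± 0.15 for *Esr1* (SE, edgeR adjusted p = 1 for each). *Prlr*, without the count filter, gave 0.20 ± 0.51 (SE, edgeR adjusted p = 0.951). LP and NP males overlapped for all 7 genes, where 0.647% of genes did not, and edgeR called 0 of the 6 tested members and 5 of 13181 genes (0.0379%). At an unadjusted p under 0.05 edgeR and DESeq2 each counted 0 members, and limma-voom counted 1, *Esr1* (-0.34 on the log2 scale, adjusted p = 0.727). The smallest exact permutation p for diet was 0.111, for *Esr1* in males, where NP males 1 to 3 and LP male 3 held the 4 highest values.

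In females the difference of LP minus NP was 0.03 ± 0.31 for *Ghr*, 0.16 ± 0.39 for *Prlr*, -0.28 ± 0.57 for *Stat5a*, 0.16 ± 0.29 for *Stat5b*, -0.18 ± 0.21 for *Cish*, -0.35 ± 0.37 for *Socs2* and -0.32 ± 0.29 for *Esr1* (log2 scale, SE). The edgeR adjusted p lay between 0.893 and 0.989. LP and NP females overlapped for all 7, where 2.92% of genes did not. Across all 13510 genes tested in females edgeR called 0 (0%), with 564 at an unadjusted p under 0.05, while DESeq2 called 9 and limma-voom 0. Among the members edgeR and DESeq2 counted 0 at an unadjusted p under 0.05 and limma-voom counted 1, again *Esr1* (-0.74, adjusted p = 0.26). With 3 NP females, of which 1 stood apart, the errors are wide, and that of *Stat5a* is close to the log2 of a 1.5-fold change. Without the 3 libraries that stood apart, LP females had 109, 160.3 and 135 CPM of *Prlr* and NP females 76.0 and 89.3 CPM, a log2 difference of 0.72 ± 0.20 (SE, edgeR adjusted p = 0.972).

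The change with diet was also compared between the sexes. The diet difference in females minus that in males was 0.10 for *Ghr*, -0.50 ± 0.58 (SE) for *Stat5a*, 0.01 for *Stat5b*, -0.32 for *Cish*, -0.03 for *Socs2* and -0.05 for *Esr1*, with an edgeR adjusted p between 0.977 and 0.998, and 0.02 for *Prlr* without the count filter. No member passed, since edgeR, DESeq2 and limma-voom each counted 0 of 6 at an unadjusted p under 0.05, while 2 of 12665 genes (0.0158%) passed the adjusted edgeR test. One alternative departed from this: without the 5 libraries highest in fat cell markers and without the count filter together, *Stat5a* passed (-1.16 ± 0.29 SE, edgeR adjusted p = 0.0105) in a fit that called 369 genes, while with the filter it was -1.19 ± 0.65 (SE, edgeR adjusted p = 0.997).

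**Figure D4:**
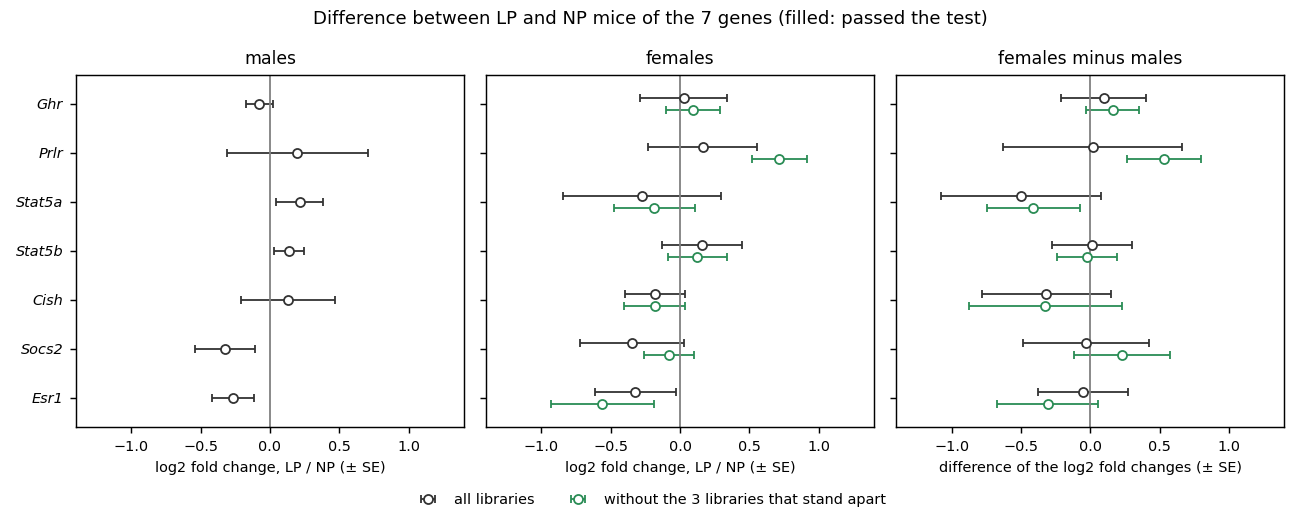
Log2 difference of LP minus NP with its SE for each gene in males and in females, and the interaction (the difference in females minus that in males), with all libraries in black and without the 3 that stood apart in green. No point is a DEG, and with all libraries the widest SE of a diet difference are those of *Stat5a* in females (0.57) and *Prlr* in males (0.51).

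Since the females fell into sets of 5 and 3 libraries, each too small for a correlation of its own, pairs of members across females were computed but are not read as relations. Across the 10 males, centered on diet, none of the 21 pairs of members passed a permutation test with Benjamini-Hochberg adjustment over 42 pairs in both sexes. The highest r was that of *Stat5a* with *Stat5b* (Pearson r = 0.739, permutation p = 0.0150, adjusted 0.210; Spearman rho = 0.758, permutation p = 0.0147, adjusted 0.129). Without the 2 libraries farthest from the median of *Stat5a*, r was 0.566. *Cish* with *Socs2* had the same rho (0.758, permutation p = 0.0154, adjusted 0.129) and an r of 0.635 (permutation p = 0.0520, adjusted 0.291), which was 0.856 without the 2 libraries farthest from the median of *Cish*.

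The hormones themselves were at or near 0 in the kidney. *Gh* had 2 reads and *Prl* 6 reads over all 18 libraries, each being at 0 in 16 of them, and *Cyp19a1*, which makes estrogen from androgen, had 0. The steroid enzyme gene *Hsd17b11* fell in females, from 1105 ± 233 CPM in males to 119 ± 16.9 CPM (-3.19 on the log2 scale, edgeR adjusted p = 6.06e-11), the 1 of 11 hormone and hormone synthesis genes with enough counts to be tested. *Hsd17b2*, an enzyme that inactivates estradiol, was 8.97 ± 2.68 CPM in males and 1.54 ± 0.946 CPM in females and did not meet the count filter.

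Between the receptors and STAT5 stand kinases, adaptors and phosphatases. Of 15 such genes tested, 4 were higher and 1 was lower in females by adjusted p, close to the 38.7% of all genes that passed, with a median log2 difference of -0.05 against 0.05 for all genes. *Jak2*, the kinase both receptors use, was 47.7 ± 6.14 CPM in males and 53.7 ± 15.3 CPM in females (0.16, edgeR adjusted p = 0.448). *Jak3*, a kinase of interleukin receptors, was a DEG at 19.2 ± 3.93 CPM in males and 30.4 ± 5.54 CPM in females (0.69, edgeR adjusted p = 0.000272). The adaptor *Sh2b3* (0.28, edgeR adjusted p = 0.0131) and the phosphatase *Ptpn11* (-0.37, edgeR adjusted p = 0.0135) changed by less than 1.5-fold. Of 4 other *Stat* genes tested *Stat6* passed (-0.33, edgeR adjusted p = 0.00378), and without the 3 libraries that stood apart 3 of the 4 were higher and 1 was lower in females. Of 4 other *Socs* genes *Socs7* fell, from 73.8 ± 8.39 CPM in males to 46.9 ± 8.23 CPM (-0.71, edgeR adjusted p = 2.05e-05), and *Socs5* was higher in females by adjusted p (0.35, edgeR adjusted p = 0.0438). The *Stat* and *Socs* lists, of 4 tested genes each, are too short to read against the 38.7% of all genes that passed.

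Among 9 tested genes known to respond to growth hormone and STAT5, 3 rose in females and 0 fell, with a median log2 difference of 0.27. As a share this is no more than the 38.7% of all genes that passed by adjusted p. *Igfals*, which encodes a carrier subunit of circulating insulin-like growth factor complexes, rose from 18.3 ± 3.52 CPM in males to 54.2 ± 17.9 CPM in females (1.57, edgeR adjusted p = 4.91e-06). *Igf1*, the growth factor itself, was 1.82 to 5.67 CPM in males and 3.52 to 28.5 CPM in females (1.48 ± 0.35 SE, edgeR adjusted p = 0.00292). Its 2 highest values, 28.5 CPM in NP female 3 and 15.4 CPM in LP female 2, were in the same libraries as the 2 highest of *Socs2*, and without the 3 that stood apart it missed the threshold (0.67, edgeR adjusted p = 0.0608). *Cux2*, a factor known for its female bias in liver, rose at low levels, from 1.95 ± 0.548 CPM to 3.47 ± 0.737 CPM (0.87, edgeR adjusted p = 0.00105).

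Of 10 tested relatives and coregulators of the estrogen receptor, 1 was higher and 3 were lower in females by adjusted p, close to the 38.7% of all genes, with a median of -0.04. The 3 were the coactivators *Ncoa2* (-0.76, edgeR adjusted p = 0.0033) and *Ncoa3* (-0.44, edgeR adjusted p = 0.00425) and the corepressor *Ncor1* (-0.55, edgeR adjusted p = 0.0133), of which *Ncoa2* alone passed the 1.5-fold limit. *Gper1*, a membrane receptor linked to estrogen, was the 1 that was higher (0.75, edgeR adjusted p = 0.0319). Of 4 tested genes known to respond to estrogen, 2 rose and 0 fell, with a median of 0.27, a list too short to read against the 38.7% of all genes. *Greb1* was 7.05 ± 1.63 CPM in males and 16.1 ± 3.23 CPM in females (1.22, edgeR adjusted p = 4.19e-06), higher in females while *Esr1* was lower. *Cxcl12* also rose (0.63, edgeR adjusted p = 0.0416), a call lost without the 3 libraries that stood apart.

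Other receptors of the 2 families passed about as often as the 38.7% of all genes. Of 7 tested class I cytokine receptors *Epor*, the erythropoietin receptor, rose (0.69, edgeR adjusted p = 0.0391) and *Il6st*, the shared signal subunit of the interleukin-6 family, fell from 384.7 ± 39.6 CPM in males to 229.7 ± 86.1 CPM in females (-0.75, edgeR adjusted p = 0.00505), with a median over the list of 0.10. Of 3 other steroid receptors *Nr3c2*, the mineralocorticoid receptor, rose from 9.93 to 17.9 CPM (0.82, edgeR adjusted p = 3.87e-05), with a median of 0.13. For diet and for the interaction 0 genes of any of these lists had an edgeR adjusted p under 0.05.

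**Figure D5:**
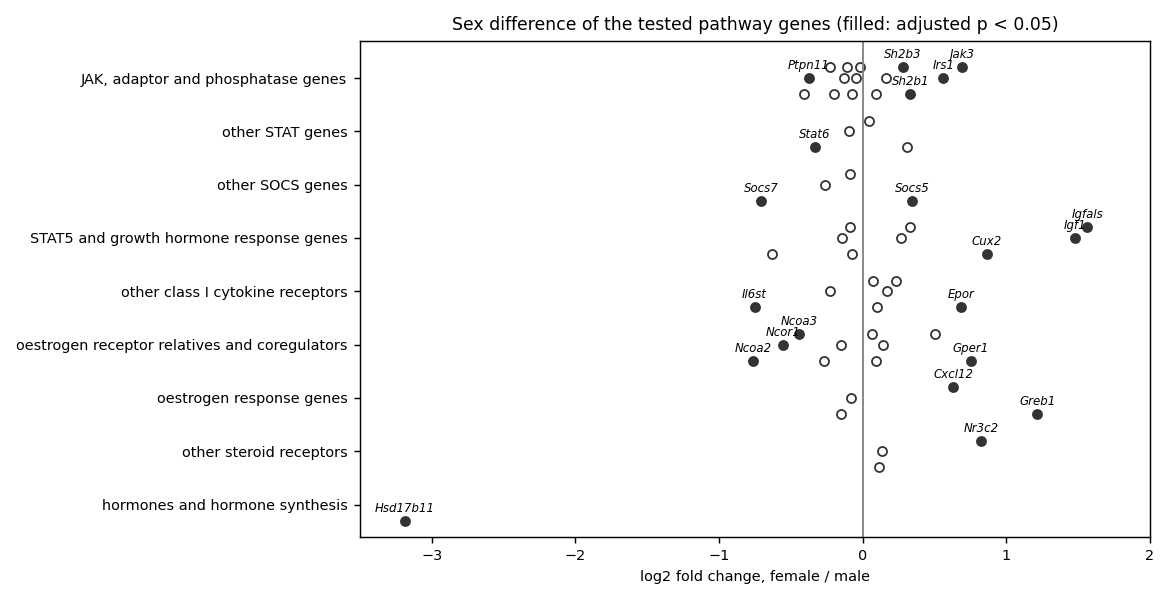
Log2 difference of females minus males for the tested genes of each pathway list, 1 point per gene, filled where the edgeR adjusted p is under 0.05. *Hsd17b11* at -3.19 lies lowest, and *Igfals*, *Igf1* and *Greb1* lie highest, between 1.22 and 1.57.

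For 5 members the genes whose levels ran most nearly parallel over the 18 libraries were sought among those that met the count filter, by Pearson r of log2(CPM + 1). This r is a description in which the difference between the sexes takes a large part, and it is also given after centering on the 4 group means. *Prlr* ran close to *Slc22a8* (0.978) and *Kynu* (0.975), and after centering to *Grip1* (0.793), *Ntrk3* (0.786) and *Cplx2* (0.766). *Ghr* ran closest to *Ehhadh* (0.954), *Slc41a2* (0.954) and *Ace* (0.952), and after centering to *Slc22a26* (0.961), *Kcnh1* (0.946) and *Sec14l3* (0.944). Without the 3 libraries that stood apart, these centered values were 0.788, 0.675 and 0.726 for the neighbors of *Ghr* and 0.827, 0.777 and 0.736 for those of *Prlr*. *Socs2* ran closest to *AI429214* (0.940), *1700034H15Rik* (0.904) and *Arid3b* (0.895), and after centering to *AI429214* (0.858), *Wdr25* (0.847) and *Arid3b* (0.839). Without the 3 libraries these values for *Socs2* were 0.901, 0.831 and 0.755, and after centering 0.798, 0.781 and 0.674. *Cish* had no gene above *Ihh* (0.678), with *Ppp1r10* (0.650) and *Naip2* (0.622) next, and after centering *Dcaf5* (0.782), *Nr2c1* (0.716) and *Ppp1r10* (0.712). *Esr1* ran closest to *Sft2d1* (0.943), *Adh1* (0.938) and *Inmt* (0.936), and after centering to *Pex19* (0.800), *Exoc7* (0.785) and *Tubgcp2* (0.783).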

How the data were processed

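The values are raw counts of reads per gene for 18 kidney libraries, deposited by the authors as 1 STAR table per mouse on GRCm39 (GENCODE vM36, the STAR version is not given in the sources used here). The column that ignores strand was used, which matches a kit that does not keep strand, and 28.6% to 36.1% of reads per library were not assigned to 1 gene and stayed out of library sizes. Positions and exon lengths came from GENCODE vM39, which lists 78168 of the 78239 genes. Groups followed the labels, each library being a separate mouse, and no 2 libraries agreed within sampling noise (lowest chi-square per degree of freedom 12.1). The sources used here do not say that the same replicate number marks a shared origin, and deviations of same-numbered mice correlated between -0.61 and 0.48.

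The main test was edgeR 4.0.16 (quasi-likelihood, TMM, R 4.3.3) on genes whose count was 10 or more in each library of a comparison, with Benjamini-Hochberg adjustment over all genes tested. Diet was tested within each sex, and sex and the interaction in 1 model of 4 group means. A DEG had an adjusted p under 0.05 and at least 1.5-fold change, and the interaction used the adjusted p alone. DESeq2 1.42.0, limma-voom 3.58.1, other filters, size factors, a replicate block, other sets of libraries and leaving out each library were alternatives. Summing the strand columns and leaving out the 5 libraries highest in fat cell markers were chosen after seeing the data. The 3 libraries that stood apart were also picked by gene expression in these data. Permutation tests used log2 normalized counts. The tests were tried on simulated data. The rest used Python 3.11.15 with matplotlib 3.10.9, numpy 2.4.6, pandas 2.3.3, scipy 1.17.1 and statsmodels 0.14.6.

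The 7 members and the gene lists were chosen with earlier results of these data known. Named beyond the members are the hormone genes, *Esr2*, *Jak2* and *Igf1*, and list genes with an adjusted p under 0.05, at most the 3 with the smallest p per list and comparison. The parallel genes are the 3 with the highest r per member. Some genes that these rules name are not reported here. Exact and permutation p-values are two-sided.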

Additional observations from a re-analysis of the deposited data

Results flagged for a closer look

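*Socs2* in LP female 2 lay far from the other LP females, at 66.6 CPM against 34.4 CPM in the nearest, a gap of 0.790 of the range of the group. It was the 1 such value among 21 sets, each of 1 gene in 1 group of 5 libraries, and chance gives about 1 in 20. The NP females, with 3 libraries, were not tested in this way. This library was among the 3 that stood apart.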

How the results depend on the processing

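*Prlr* and *Esr1* were DEGs of sex under all 26 and 28 alternatives that could be computed, and *Socs2* under all 28, between 0.74 and 1.27 on the log2 scale. No sex call of a member turned its direction. In NP mice *Socs2* lost its call without NP female 3 (0.63), without the 3 libraries that stood apart (0.63) and without the 5 libraries highest in fat cell markers (0.61). *Ghr* became a DEG of sex without the count filter (-0.60), without LP female 4 (-0.61) and without NP female 1 (-0.66). Within a diet it became one in NP mice with DESeq2 (-0.61), without LP female 1 (-0.60) and without NP female 1 (-0.82), and in LP mice without LP female 4 (-0.62). *Prlr* has no value in the fits with males that keep the count filter, since it had too few reads in NP males 1 and 5.

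The numbers of DEGs of diet depended on the method. The 5 of diet in males became 9 without the filter, 15 with DESeq2, 2 with a replicate block, 3 without the 5 libraries highest in fat cell markers and 1 with all 4 groups in 1 model. The 0 in females became 3, 9 with DESeq2, 1 without the 3 libraries that stood apart and 2 with all 4 groups. The 2 genes with an interaction became 5 with DESeq2, 7 with limma-voom, and 0 with the replicate block, with summed strands, without the 5 libraries and without the 3. The 2370 DEGs of sex became 4900 by adjusted p alone and the 1503 in LP mice 2344, and the 2235 in NP mice became 1383 without the 5 libraries. Leaving out 1 library at a time gave 2 to 6 DEGs of diet in males, 0 to 2 in females, 0 to 4 interaction genes, and 2218 to 2616 DEGs of sex, 1709 to 3045 in NP mice and 1132 to 1644 in LP mice. Where the count filter was dropped together with libraries or with the block, as for *Prlr*, edgeR called more: without the 5 libraries 285 male diet genes, 379 female diet genes and 369 interaction genes, without the 3 libraries 216 female diet genes and 159 interaction genes, and with the replicate block 130, 27 and 61 in the same order. The cause of these shifts was not tested.

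Since the replicate numbers are not known to pair the mice, the replicate block is given for its counts only: with it 2249 genes were DEGs of sex, 1829 in NP mice and 1332 in LP mice. Pairs of members with an adjusted permutation p under 0.05 went from 1, among the females and so not read as a result, to 0 when values were not centered on diet. Depth limits *Prlr* in males and *Esr2* in females, at 6 to 125 and 4 to 12 counts.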
